A study of Mus musculus with 15 samples.

Results

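Except for Cpt1c, a relative of Cpt1a, the 9 genes here encode enzymes and carriers that let brain cells burn ketone bodies and fatty acids. They are Bdh1, Oxct1, Acat1, Slc16a1, Cpt1a, Cpt1c, Acadl, Acadm and Hadha. They were chosen by name for their role, by a rule that uses no measured value but was set with earlier results of these data known, and each matched exactly 1 of the 43629 genes listed in the deposited counts. All 9 passed the filter on low counts, and 15864 genes passed it in all. RNA-seq had been run on whole brains of 15 wildtype male C57BL/6J mice, 1 library per mouse. Young mice (labelled 3 months) and old mice (labelled 24 months) had either eaten ad libitum (AL) or been kept on intermittent fasting. The labels call the latter IF and the paper calls it every-other-day feeding (EOD), 24 h with food alternating with 24 h without, from 2 months of age. There were 4 AL and 3 EOD mice among the young, and 4 of each among the old. The ages used here are those of the labels, and the paper gives the old mice a younger age at the start of its tests. Its general rule was to collect data in the morning after a feeding day, and it gives no separate feeding state for the mice whose brains were taken, so a difference between fasted and fed brains was not measured. Only males of 1 inbred strain were studied, and the young EOD mice had been on the diet for a short time.

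Ketone bodies are made mainly by the liver during fasting and serve the brain as a fuel beside glucose. They cross the blood-brain barrier and cell membranes through monocarboxylate transporters. In mitochondria, 3-hydroxybutyrate is oxidized to acetoacetate, which is activated with CoA and split into acetyl-CoA. Long-chain fatty acids enter mitochondria through the carnitine shuttle and are shortened by rounds of beta-oxidation, for which the brain has a much smaller capacity than liver, heart or muscle. The comparisons ask whether transcripts of these enzymes differ in brain with age, with the EOD diet, or with both.

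None of the 9 genes passed FDR 0.1 for age, diet or their interaction. Levels are CPM, a gene's count scaled to a common library total after TMM normalization, and differences are log2 fold changes from the quasi-likelihood test of edgeR, with p-values adjusted by Benjamini and Hochberg's method across the 15864 genes (FDR). Between old EOD and old AL mice, the log2 fold changes of the 9 genes lay between -0.09 and 0.09, and their 95% intervals all lay between -0.27 and 0.27, a change of -17.3% to 20.9%. Between young EOD and young AL mice, fold changes lay between -0.07 and 0.22 on the log2 scale and the intervals between -0.32 and 0.47. The intervals are not corrected for the number of genes. The third young AL library stood apart from the other 14, with the highest total count (13610729) but the fewest genes with a count (17280 against 19054 to 20880). Single-gene fold changes named below from this test, for age in AL mice or diet in young mice, are therefore also given without it. Without it, the fold changes of the 9 genes with diet in young mice lay between -0.17 (Acadm) and 0.11 (Acadl). Totals ranged from 5198748 to 13610729, and the lowest count of any of the 9 genes in any mouse was 163. Each library came from its own mouse. The p-values set each difference against a spread between mice that was estimated over all 4 groups, with information shared across genes.

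Every library carried brain cell markers. The summed level of 7 neuronal markers lay between 7270 and 9309 CPM, that of 7 astrocyte markers between 5018 and 5894 CPM and that of 6 oligodendrocyte markers between 5795 and 7571 CPM. Of 5 microglial markers, 3 rose with age averaged over diets (FDR under 0.1) as did 1 of 7 astrocyte and 1 of 6 oligodendrocyte markers, and none fell. No tested marker of the 12 lists passed for diet in young or in old mice. The fourth old AL library held 1039 CPM of pituitary hormone markers, against 0.719 to 18.2 CPM in the other 14. In whole tissue, fewer cells of a type and less RNA per cell cannot be told apart.

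The 9 genes differed more from each other than between groups. Per kb of exon and averaged over the 15 mice, Oxct1 was the most abundant, with 128 ± 10 CPM per kb (SD, n = 15), a level above that of 98.3% of the tested genes. Acat1 followed with 30.3 ± 1.53 CPM per kb, and both steps in this order, Oxct1 over Acat1 and Acat1 over Cpt1c, held in 15 of 15 mice. Cpt1c (20.9 ± 1.46 CPM per kb) and Acadl (20.8 ± 2.41 CPM per kb) could not be ordered, since Cpt1c was the higher in only 7 of 15 mice. Hadha came next with 14 ± 1.01 CPM per kb, below Acadl in 15 of 15 mice. Acadm (11.4 ± 1.09), Slc16a1 (11.4 ± 1.08) and Bdh1 (10.7 ± 0.950 CPM per kb) overlapped, with Acadm above Slc16a1 in 7 mice and Slc16a1 above Bdh1 in 9 mice of 15. Cpt1a was lowest, with 7.80 ± 0.691 CPM per kb, and stood below Bdh1 in 15 of 15 mice.

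**Figure D1:**
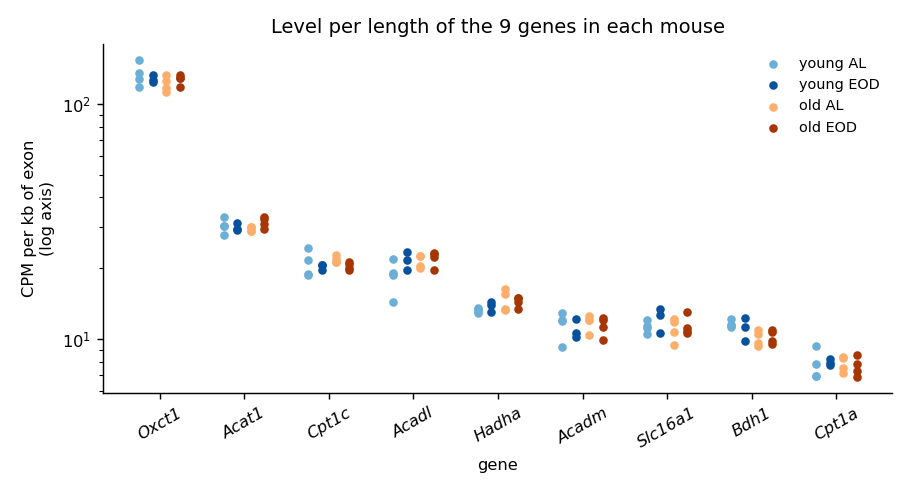
Level of each gene in each mouse, as CPM per kb of exon on a log axis, ordered by the mean over 15 mice, with 1 point per mouse coloured by group. Oxct1 sits between 112 and 154 CPM per kb, above the other genes in every mouse. For Bdh1 old AL and old EOD mice lie below young AL mice, and for Cpt1c old AL mice lie above young EOD mice. Elsewhere the groups overlap within each gene.

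Levels were stable from mouse to mouse. The highest mouse exceeded the lowest by 1.19-fold for Acat1 and by 1.63-fold for Acadl, with the other 7 genes in between. The spread of Acat1 over the 15 mice (SD of log2 CPM) was among the smallest measured, larger than that of only 1.44% of tested genes. Genes were not matched for level in this ranking, and low genes are measured with little precision. Acadl was the most variable of the 9, with a larger spread than 43.3% of tested genes, and its lowest value, 28.8 CPM, came from the third young AL mouse.

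**Figure D2:**
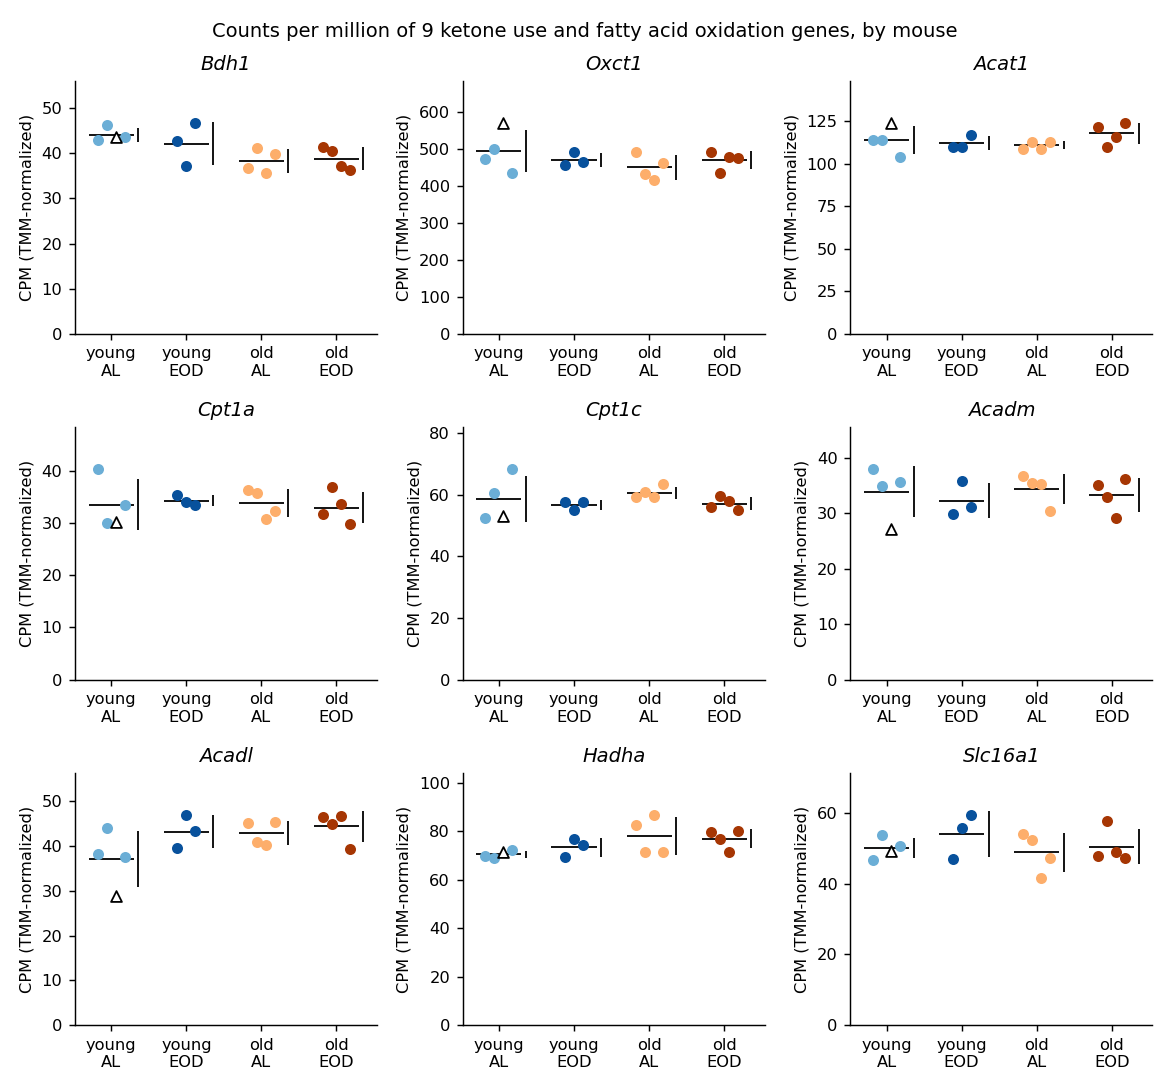
CPM of each gene (y axis from 0) in the 4 groups. Points are mice, the horizontal line is the group mean and the vertical line spans 1 SD on either side; the open triangle is the third young AL mouse, the highest for Oxct1 (571 CPM) and the lowest for Acadl (28.8 CPM) and Acadm (27.2 CPM).

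Slc16a1 encodes the monocarboxylate transporter MCT1, which carries ketone bodies and lactate and is abundant in brain endothelium. The gene (ENSMUSG00000032902) lies on the plus strand of chromosome 3, from 104638668 to 104658462 on GRCm38. Slc16a1 measured 46.6, 53.7, 49.3 and 50.5 CPM in the young AL mice and 46.9, 55.7 and 59.4 CPM in the young EOD mice. In old mice it measured 54.1, 52.2, 41.6 and 47.2 CPM under AL and 47.9, 57.6, 49.0 and 47.1 CPM under EOD. All 4 groups overlapped. The log2 fold change with diet was 0.11 in young mice (SE 0.107, 95% interval -0.12 to 0.33, edgeR FDR 0.996) and 0.04 in old mice (SE 0.0995, 95% interval -0.17 to 0.25, edgeR FDR 1). In young mice the value of Slc16a1 was 0.10 without the third young AL mouse (SE 0.113, edgeR FDR 1). The summed level of 6 endothelial markers lay between 256 and 318 CPM, none of them passed FDR 0.1 for age or diet, and their part in the Slc16a1 values was not tested.

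Bdh1 encodes mitochondrial 3-hydroxybutyrate dehydrogenase, which turns 3-hydroxybutyrate into acetoacetate. It (ENSMUSG00000046598) lies on the plus strand of chromosome 16, 31422280 to 31458901. The antisense gene Gm15743 overlaps it on the other strand, and the counting used strand. Bdh1 was the only one of the 9 genes whose old AL and young AL mice did not overlap. Young AL mice had 42.9, 46.4, 43.6 and 43.7 CPM and old AL mice 36.7, 41.3, 35.6 and 39.8 CPM, so every old AL mouse was lower. The means were 44.1 ± 1.52 and 38.3 ± 2.67 CPM (SD, n = 4 each), a log2 fold change of -0.20 (SE 0.0886, 95% interval -0.38 to -0.02), with an unadjusted p of 0.0349 and an edgeR FDR of 0.473. Without the third young AL mouse it was -0.20 (SE 0.0926, unadjusted p = 0.0425, edgeR FDR 0.650). Of all tested genes, 1.58% were lower without overlap in this comparison, 9.52% had an unadjusted p under 0.05 and 1.09% passed FDR 0.1. Within sequencing lanes 1, 2 and 3, which the file headers name, old AL mice differed from young AL mice by -0.28, -0.18 and -0.13 on the log2 CPM scale, with 1 or 2 mice per group. The lane 2 value was set against the third young AL mouse alone. Young EOD mice had 42.7, 37.1 and 46.7 CPM and old EOD mice 41.4, 40.5, 37.2 and 36.3 CPM, which overlapped. The age difference was -0.12 under EOD (SE 0.0960, edgeR FDR 0.987) and the interaction 0.08 (SE 0.131, edgeR FDR 1), so an age difference under one diet and not the other was not shown. Averaged over diets it was -0.16 (SE 0.0653, edgeR FDR 0.308, unadjusted p = 0.0223), where 2.30% of all genes passed FDR 0.1 and 11.7% had an unadjusted p under 0.05.

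Oxct1 encodes succinyl-CoA:3-ketoacid CoA transferase (SCOT), which activates acetoacetate and is the enzyme that tissues need to use ketone bodies. It (ENSMUSG00000022186) lies on the plus strand of chromosome 15, 4026383 to 4155344. Young AL mice measured 473, 500, 571 and 436 CPM, and the value of 571 CPM was that of the library that stood apart. Young EOD mice measured 458, 493 and 465 CPM. Old AL mice measured 492, 434, 416 and 464 CPM and old EOD mice 492, 437, 479 and 476 CPM. The groups overlapped in all comparisons. With age in AL mice the log2 fold change of Oxct1 was -0.13 (SE 0.0762, edgeR FDR 0.615), and without the third young AL mouse it was -0.05 (SE 0.0713, edgeR FDR 0.963). The diet difference in old mice was 0.06 (SE 0.0762, 95% interval -0.10 to 0.22, edgeR FDR 1).

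Acat1 encodes mitochondrial acetoacetyl-CoA thiolase, which splits acetoacetyl-CoA into acetyl-CoA. It (ENSMUSG00000032047) lies on the minus strand of chromosome 9, 53580522 to 53610382. Young mice had 114, 114, 124 and 104 CPM under AL and 110, 110 and 117 CPM under EOD. Old mice had 109, 113, 109 and 113 CPM under AL and 122, 110, 116 and 124 CPM under EOD. Of the 4 old EOD mice, 3 were above all old AL mice, and the fourth lay among them. Acat1 differed with diet in old mice by 0.09 on the log2 scale (SE 0.0681, 95% interval -0.05 to 0.23, edgeR FDR 1). Acat1 had the narrowest intervals of the 9 genes. The largest diet difference in old mice inside its interval was 0.23 on the log2 scale. Some wider intervals, such as that of Hadha (-0.18 to 0.15), reached less far from 0.

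Cpt1a and Cpt1c belong to the carnitine palmitoyltransferase 1 family. Cpt1a encodes the outer mitochondrial membrane enzyme that commits long-chain fatty acids to oxidation and is a well-known fasting-induced gene in liver. Cpt1c encodes a neuronal form of the endoplasmic reticulum with little such activity. The muscle form, Cpt1b, had 0 counts in all 15 mice, which allows a level of up to 0.0210 CPM over the pooled libraries, for counting error only. Cpt1a (ENSMUSG00000024900) lies on the plus strand of chromosome 19, 3323301 to 3385732, and Cpt1c (ENSMUSG00000007783) on the minus strand of chromosome 7, 44959373 to 44974851.

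The start sites of Cpt1a, Cpt1c and Acadm are shown because their windows hold the letters AGGTCA, the half-site read by nuclear receptors such as PPAR alpha, the receptor that fasting activates. The windows, from RefSeq on GRCm38.p6, run from 250 bases before to 50 after the annotated start, 5′ to 3′ on the gene's strand, and capitals mark AGGTCA or its reverse complement.
Cpt1a, chr19:3323051-3323350, plus strand: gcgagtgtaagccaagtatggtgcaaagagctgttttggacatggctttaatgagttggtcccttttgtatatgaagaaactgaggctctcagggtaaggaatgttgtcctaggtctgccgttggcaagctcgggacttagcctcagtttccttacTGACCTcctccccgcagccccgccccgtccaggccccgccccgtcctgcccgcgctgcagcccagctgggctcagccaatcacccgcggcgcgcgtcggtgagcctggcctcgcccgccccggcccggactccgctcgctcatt
Cpt1c, chr7:44974802-44975101, minus strand: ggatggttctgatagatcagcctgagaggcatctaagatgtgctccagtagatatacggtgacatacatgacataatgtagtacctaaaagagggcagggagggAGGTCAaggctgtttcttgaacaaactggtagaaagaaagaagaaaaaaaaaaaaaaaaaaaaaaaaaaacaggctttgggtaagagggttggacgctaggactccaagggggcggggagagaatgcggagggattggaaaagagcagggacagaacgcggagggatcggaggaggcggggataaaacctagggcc
Acadm, chr3:153944594-153944893, minus strand: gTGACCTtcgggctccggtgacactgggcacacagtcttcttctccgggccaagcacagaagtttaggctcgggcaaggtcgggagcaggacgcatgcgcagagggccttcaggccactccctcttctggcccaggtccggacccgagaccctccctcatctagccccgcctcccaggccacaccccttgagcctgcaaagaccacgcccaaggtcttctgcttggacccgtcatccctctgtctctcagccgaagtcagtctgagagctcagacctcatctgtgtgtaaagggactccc
Windows were found for 8 of the 9 genes (9 windows, 2 of them for Bdh1), and 3 of the 9 held the half-site on either strand, against 16.3% of 32851 mouse windows. A direct repeat of the half-site with 1 base between the copies, which overlaps the half-site search, was in 0 of the 9 and in 0.0396% of all windows. A match of letters is a description and not a binding site.

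Cpt1a measured 40.3, 29.9, 30.1 and 33.5 CPM in young AL mice and 35.4, 33.9 and 33.4 CPM in young EOD mice. In old mice it measured 36.2, 35.7, 30.8 and 32.3 CPM under AL and 31.6, 36.8, 33.6 and 29.7 CPM under EOD. No group stood apart, and the first young AL mouse had the highest value of all. Cpt1a differed with diet by 0.04 on the log2 scale in young mice (SE 0.113, 95% interval -0.20 to 0.28, edgeR FDR 0.998), or by -0.01 without the third young AL mouse (SE 0.115, edgeR FDR 1). In old mice it differed by -0.04 (SE 0.105, 95% interval -0.26 to 0.18, edgeR FDR 1). Cpt1c had 52.4, 60.7, 53.2 and 68.4 CPM in young AL and 57.6, 55.0 and 57.6 CPM in young EOD mice. Old mice had 59.4, 60.9, 59.2 and 63.4 CPM of Cpt1c under AL and 55.9, 59.5, 58.1 and 55.1 CPM under EOD. Young AL mice had the widest range and contained every young EOD value. In old mice the EOD values of 55.9, 58.1 and 55.1 CPM were below every AL value, and that of 59.5 CPM lay among them. The Cpt1c difference with diet in old mice was -0.09 (SE 0.0848, 95% interval -0.27 to 0.09, edgeR FDR 1). Per kb of exon, Cpt1c exceeded Cpt1a by 2.75 ± 0.532-fold (SD, n = 4) under AL and 2.55 ± 0.0882-fold (n = 3) under EOD in young mice, and by 2.78 ± 0.243-fold (n = 4) and 2.68 ± 0.150-fold (n = 4) in old mice, with overlapping ranges.

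Beta-oxidation was represented by 2 acyl-CoA dehydrogenases, which carry out its first step, and by the alpha subunit of the trifunctional protein, which carries out the later steps on long chains. Acadl, the long-chain dehydrogenase (ENSMUSG00000026003), lies on the minus strand of chromosome 1, 66830839 to 66863277. A pseudogene, Gm15793, lies inside one of its introns on the same strand and shares no exon with it. Acadl measured 38.2, 43.9, 28.8 and 37.5 CPM in young AL and 39.4, 46.9 and 43.2 CPM in young EOD mice. Old mice had 45.0, 40.9, 40.1 and 45.3 CPM under AL and 46.4, 44.9, 46.7 and 39.3 CPM under EOD. The groups overlapped, and the third young AL mouse was the lowest of the 15. With age in AL mice the log2 fold change was 0.21 (SE 0.110, edgeR FDR 0.545), and without that mouse it was 0.11 (SE 0.0954, edgeR FDR 0.928). With diet in young mice it was 0.22 (SE 0.119, 95% interval -0.03 to 0.47, edgeR FDR 0.996), and without that mouse 0.11 (SE 0.102, edgeR FDR 1). Compared inside single lanes, young EOD differed from young AL mice by -0.05 (lane 1) and by 0.64 (lane 2), and the only young AL mouse of lane 2 was the one that stood apart.

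Acadm, the medium-chain dehydrogenase (ENSMUSG00000062908), lies on the minus strand of chromosome 3, 153922357 to 153944632. It measured 38.0, 34.9, 27.2 and 35.6 CPM in young AL and 29.9, 35.8 and 31.1 CPM in young EOD mice. Old AL mice had 36.7, 35.4, 35.2 and 30.5 CPM and old EOD mice 35.1, 32.9, 29.2 and 36.1 CPM. The 27.2 CPM of the third young AL mouse was again the lowest value. The log2 fold change with diet in young mice was -0.07 (SE 0.120, edgeR FDR 0.997) and became -0.17 (SE 0.108, edgeR FDR 1) without that mouse. With age in AL mice it was 0.02 (SE 0.110, edgeR FDR 0.973) with it and -0.07 (SE 0.0996, edgeR FDR 0.968) without it.

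Hadha (ENSMUSG00000025745) lies on the minus strand of chromosome 5, 30118301 to 30155162, and overlaps Garem2 on the other strand. Hadha was tight in young AL mice, with 70.0, 68.9, 71.3 and 72.2 CPM, and wider in old AL mice, with 82.7, 71.4, 86.8 and 71.3 CPM. In EOD mice it measured 69.2, 76.7 and 74.3 CPM when young and 79.5, 76.8, 71.4 and 80.1 CPM when old. Of the 4 old AL mice, 2 exceeded every young AL mouse and the others lay among them. On the log2 scale Hadha differed with age by 0.14 in AL mice (SE 0.0782, 95% interval -0.02 to 0.30, edgeR FDR 0.599) and 0.07 in EOD mice (SE 0.0849, 95% interval -0.11 to 0.25, edgeR FDR 0.995). In AL mice it was 0.15 without the third young AL mouse (SE 0.0843, edgeR FDR 0.785). With diet in old mice it was -0.02 (SE 0.0781, edgeR FDR 1).

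**Figure D3:**
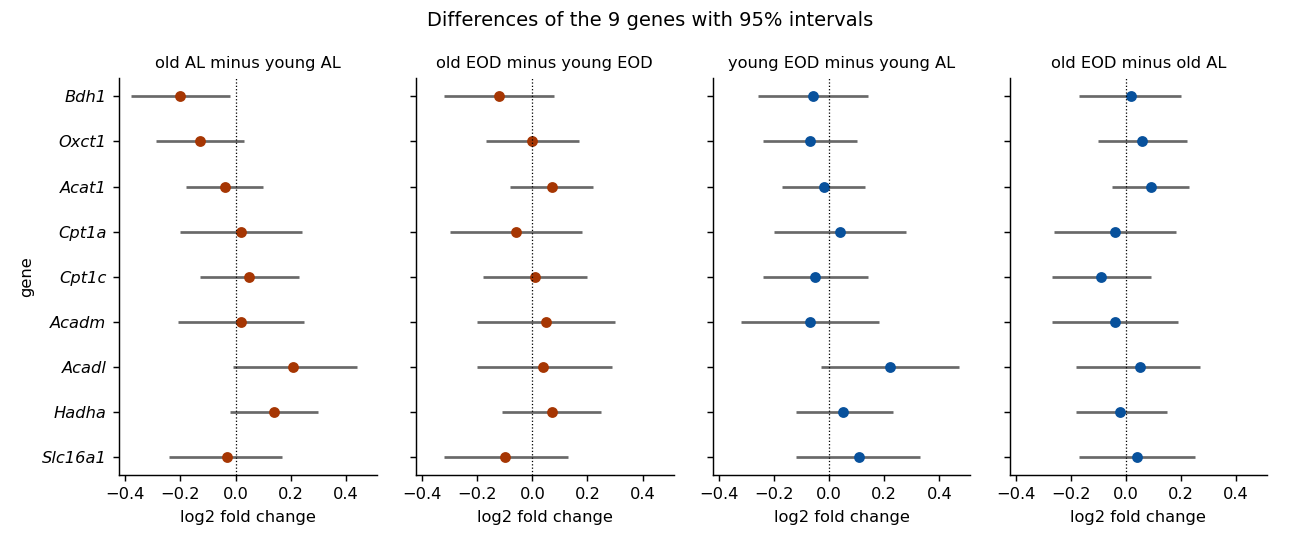
Log2 fold change of each gene (points) with its 95% interval (lines) in the 2 age and 2 diet comparisons; the dotted line marks no difference. All intervals include 0 except that of Bdh1 for old AL against young AL mice (-0.38 to -0.02), and none passed FDR 0.1.

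Read together, 5 of the 9 genes were above 0 and 4 below with age in AL mice, and the same split of numbers was found with age in EOD mice and with diet in old mice. With diet in young mice 4 were above 0 and 5 below. Some of these signs rested on the third young AL mouse. Without it, Cpt1a (-0.02) and Acadm (-0.07) were below 0 and Acat1 (0.01) above 0 with age in AL mice. With diet in young mice, Oxct1 (0.01) and Acat1 (0.02) were then above 0 and Cpt1a (-0.01) below 0. The median log2 fold change of the 9 was 0.020 for age in AL, 0.009 for age in EOD, -0.021 for diet in young and 0.015 for diet in old mice, against -0.010, 0.000, -0.003 and 0.003 for all tested genes. By edgeR, 0 of the 9 passed FDR 0.1 in each of these comparisons, where 1.09%, 0.290%, 0% and 0% of all genes passed, so edgeR called no gene for diet at either age (DESeq2 called 1 in young and 0 in old mice). At an unadjusted p under 0.05 the numbers were 1 (Bdh1), 0, 0 and 0, where 9.52%, 5.74%, 4.14% and 2.58% of all genes had such a p. For the interaction 0 of 9 passed, as did 0% of all genes, and 0 of 9 had an unadjusted p under 0.05, against 2.28%. With diet averaged over ages 0 of 9 passed and 0 had an unadjusted p under 0.05, against 4.51% of all genes. Apart from Bdh1 with age in AL mice, 0 of the 9 were without overlap in the 2 age and 2 diet comparisons. Among all tested genes 2.98% were higher without overlap with age under AL, and 4.75% higher and 4.29% lower with age under EOD. With diet 2.40% were higher and 2.05% lower in young mice, and 1.23% higher and 1.36% lower in old mice. DESeq2 called 0 of the 9 in any comparison as well, and its lowest adjusted p for Bdh1 was 0.332, with age averaged over diets. The comparisons share mice, so their values are not independent.

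The rest of the pathway was examined with 8 lists of 86 genes in all, of which 79 were tested and 70 were other than the 9. None of the 79 passed FDR 0.1 for age in AL mice, age in EOD mice, diet in young mice, diet in old mice or the interaction by edgeR. Among the 70 other genes the numbers with an unadjusted p under 0.05 were 2, 4, 4, 4 and 6, while such a p was found for 9.52%, 5.74%, 4.14%, 2.58% and 2.28% of all tested genes. Among the 70 the numbers were 4, 4, 4, 4 and 8 without the third young AL mouse. The share of all tested genes was not counted in that setting, so these numbers cannot be set against it. The 7 ketone body genes tested had a median log2 fold change with diet of -0.062 in young mice and of 0.015 in old mice. In young mice all 7 were below 0, and 5 of 7 were without the third young AL mouse, with a median of -0.067. The 6 monocarboxylate transport genes had medians of 0.112 and -0.138. The 6 tested carnitine shuttle genes had -0.061 and -0.090, the 18 of mitochondrial beta-oxidation 0.016 and -0.008, and the 11 of peroxisomal beta-oxidation 0.027 and 0.019. Fatty acid activation and uptake genes had 0.004 and -0.016 (12 tested), and genes that control oxidation, such as Ppara and Ppargc1a, 0.045 and -0.028 (12 tested). Without the third young AL mouse the medians in young mice were 0.120 for monocarboxylate transport, -0.038 for the carnitine shuttle, 0.029 and 0.012 for mitochondrial and peroxisomal beta-oxidation, 0.065 for activation and uptake and 0.084 for control.

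With age in AL mice, the list medians lay between -0.075 for ketone body genes and 0.149 for fasting genes, or -0.051 and 0.079 for these lists without the third young AL mouse. They lay with age in EOD mice between -0.141 for monocarboxylate transport and 0.062 for mitochondrial beta-oxidation. Not tested for low counts were Bdh2, Cpt1b, Acaa1b, Cyp4a10, Cyp4a14, Fgf21 and Vnn1, and the highest count of any of these in a mouse was 11, for Bdh2.

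**Figure D4:**
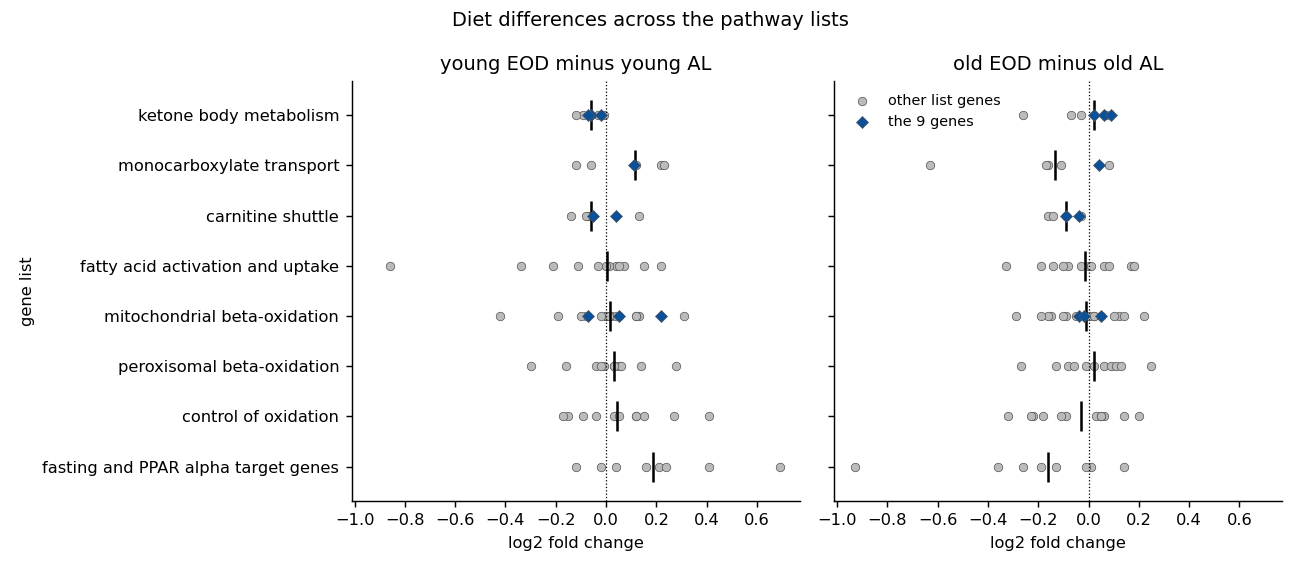
Log2 fold change with diet in young mice (left) and old mice (right) for each tested gene of the 8 pathway lists, with diamonds for the 9 genes, grey circles for the other genes and a black bar at the list median. The diamonds lie between -0.09 and 0.22, inside the spread of the other genes, and the median of the fasting genes is 0.183 on the left and -0.161 on the right.

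Outside the 9 genes, the smallest unadjusted p for diet among the list genes belonged to Slc27a1 at both ages. Slc27a1 encodes FATP1, a fatty acid transport protein. It measured 28.0, 34.4, 39.3 and 39.2 CPM in young AL mice against 30.4, 25.3 and 27.6 CPM in young EOD mice. In old mice it measured 29.1, 36.5, 35.8 and 38.4 CPM under AL and 27.2, 28.3, 31.9 and 24.0 CPM under EOD. In each age group the lowest AL mouse lay within the EOD range and the other 3 AL mice lay above it. The log2 fold change was -0.34 in young mice (SE 0.132, edgeR FDR 0.996) and -0.33 in old mice (SE 0.121, edgeR FDR 1), and averaged over ages it was -0.33 (SE 0.0898, 95% interval -0.52 to -0.15, unadjusted p = 0.00128, edgeR FDR 0.983). Slc27a1 differed, without the third young AL mouse, by -0.28 in young mice (SE 0.135, edgeR FDR 1) and by -0.31 averaged over ages (SE 0.0887, edgeR FDR 0.764). It then no longer had the smallest p: in young mice Acox3, a peroxisomal acyl-CoA oxidase, had the smallest (0.44, SE 0.112, edgeR FDR 1), followed by the fatty acid binding protein gene Fabp7 (-1.12, SE 0.296, edgeR FDR 1), and in old mice Angptl4 had the smallest (-0.91, SE 0.312, edgeR FDR 0.995).

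Of the fasting and PPAR alpha target list, 8 of 12 genes were tested and 0 passed by edgeR. Their median difference with diet was 0.183 in young mice, or 0.138 without the third young AL mouse, and -0.161 in old mice. Angptl4, Pdk4 and Ucp2 are described from this list and were chosen after their values were seen. Angptl4, a secreted inhibitor of lipoprotein lipase, was low, with 6 to 34 counts per mouse. It measured 2.65, 2.38, 1.44 and 2.43 CPM in young AL and 2.67, 3.61 and 4.47 CPM in young EOD mice, where the lowest EOD mouse was only just above the highest AL mouse. Old AL mice measured 1.99, 2.89, 3.78 and 1.77 CPM and old EOD mice 1.59, 0.683, 1.57 and 1.35 CPM, all 4 below every old AL mouse. With age under EOD the log2 fold change of Angptl4 was -1.43 (SE 0.359, edgeR FDR 0.174). Without the third young AL mouse, which is in neither group, it was -1.41 and passed with an edgeR FDR of 0.0660, and DESeq2 on all mice gave an FDR of 0.0833. Its diet difference was 0.69 in young mice (SE 0.343, edgeR FDR 0.996), or 0.52 without that mouse (SE 0.318, edgeR FDR 1), and -0.93 in old mice (SE 0.348, edgeR FDR 1). Genes higher without overlap in young EOD than young AL mice made up 2.40% of those tested, and genes lower without overlap in old EOD than old AL mice 1.36%.

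Pdk4 encodes a kinase that turns off pyruvate dehydrogenase when fat is burned. It had 12.9, 13.6, 8.16 and 12.2 CPM in young AL and 15.9, 15.6 and 14.7 CPM in young EOD mice, with no overlap. The log2 fold change was 0.41 (SE 0.187, edgeR FDR 0.996), and 0.26 (SE 0.169, edgeR FDR 1) without the third young AL mouse, which had the lowest value. In old mice Pdk4 overlapped between diets, with 14.3 ± 3.02 CPM under AL and 15.7 ± 2.65 CPM under EOD (SD, n = 4 each). Ucp2, a mitochondrial carrier, had 20.4, 20.1, 23.8 and 23.7 CPM in old AL and 14.8, 20.4, 15.9 and 17.8 CPM in old EOD mice. Its log2 fold change with diet in old mice was -0.36 (SE 0.138, edgeR FDR 1). Young AL mice had 14.7 to 20 CPM of Ucp2, all below the old AL mice, with a log2 fold change of 0.37 (SE 0.138, edgeR FDR 0.353), where 2.98% of all tested genes were higher without overlap. Without the third young AL mouse it was 0.33 (SE 0.144, edgeR FDR 0.594).

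The genes whose level followed each of the 9 most closely across the 15 mice were found by Spearman's rho of log2 CPM among all tested genes, as a description. The highest values ranged from 0.829 for Slc16a1 to 0.939 for Oxct1. For Oxct1 the first 2 were Adss and Ei24 (0.939 and 0.918), and without the third young AL mouse their values were 0.925 and 0.899. For Cpt1c they were Ubald1 and Thap7 (0.911 and 0.904), for Acadl Nt5dc1 and Katnbl1 (0.921 and 0.868) and for Acat1 Zranb1 and Hdgf (0.896 and 0.889). For Bdh1 they were Vmn2r87 and Tgm3 (0.871 and 0.868), for Hadha Sema3b and Col8a2 (0.889 and 0.861), for Acadm Col14a1 and Rbl2 (both 0.854), for Cpt1a Brip1os and Notch2 (0.839 and 0.821) and for Slc16a1 Tldc1 and 9430053O09Rik (0.829 and 0.789). None of the 9 was among the first 2 of another. Within the 9, values ranged from -0.639 for Bdh1 with Hadha to 0.482 for Oxct1 with Acat1. The points share library, depth and group, and each was picked as the highest among all other tested genes.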

How the data were processed

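RNA-seq of whole brain was analysed from 15 mice in 4 groups taken from the labels. The authors mapped trimmed reads with STAR (version not given in the sources used here). Per the file headers, featureCounts 1.5.0-p1 then assigned reads to exons of the Ensembl release 79 annotation of GRCm38, keeping primary alignments of mapping quality at least 5 on the reverse strand. The deposited values are raw counts.

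Symbols came from matching Ensembl identifiers to a reference table of gene names (42462 of 43629). After filterByExpr, differences were tested by quasi-likelihood in edgeR 4.0.16 (R 4.3.3) with TMM scaling, 1 fit of the 4 group means and a threshold of FDR 0.1. Standard errors are the log2 fold change over the square root of F, and 95% intervals use the test's degrees of freedom. Levels per length divide CPM by the exon length in the files. The steps were tested on simulated counts. Alternatives were other filters, RLE, DESeq2 1.42.0, FDR 0.05, a replicate block, lane, 2 groups only, and leaving out each mouse.

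The 9 genes and the lists were chosen with earlier results of these data known. The rule for naming other genes took list genes past the threshold (there were none), the list gene with the smallest p for diet at each age, and the 2 genes most alike each of the 9. Angptl4, Pdk4, Ucp2, Acox3, Fabp7, Rxra and Ppard fell outside it and were named after their values were seen. List medians without the third young AL mouse were added after seeing the data. Total counts ranged from 5198748 to 13610729, and low genes are measured with little precision. No pair of replicate mice had near-identical counts (chi-square per degree of freedom 3.01 to 16.6). Correlations of deviations from group means between same-numbered mice ranged from -0.113 to 0.113 over 21 pairs.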

Additional observations from a re-analysis of the deposited data

Results flagged for a closer look

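Of the genes described, Angptl4 stood out because its diet difference ran in opposite directions at the 2 ages without overlap: all 3 young EOD mice were above all 4 young AL mice, and all 4 old EOD mice were below all 4 old AL mice. The interaction was -1.62 on the log2 scale (SE 0.488, 95% interval -2.64 to -0.60, unadjusted p = 0.00329), and its edgeR FDR over 15864 genes was 1. The young groups were barely apart, with 2.67 CPM in the lowest EOD mouse and 2.65 CPM in the highest AL mouse. Of all tested genes, 2.40% were higher without overlap with diet in young mice and 1.36% lower in old mice. For the interaction, 2.28% had an unadjusted p under 0.05. Angptl4 was named after its values were seen. Without the third young AL mouse its interaction was -1.42 (SE 0.446, edgeR FDR 1). Angptl4 had 6 to 34 counts per mouse. In 39 groups of 4 mice, over the 9 genes and Slc27a1, Angptl4, Pdk4 and Ucp2, no mouse lay far enough from the others of its group to pass Dixon's 95% limit.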

How the results depend on the processing

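The number of the 9 genes past the threshold was 0 in all 7 comparisons under each of the 23 alternatives that could be fitted to it, with a range of 0 to 0 when each mouse was left out in turn. The lowest FDR that any of the 9 reached was 0.249, for Bdh1 with age averaged over diets without young EOD replicate 2. Of 1422 log2 fold changes of the 9 under alternatives, 73 had another sign than the main value, all where the main value was at most 0.0774 in size, and none moved by more than 1 SD of the mice within groups. The labels do not say that replicate numbers pair mice, and only 2 of 21 same-numbered pairs correlated above 0.1. With the replicate block the number was again 0 of 9, and of all tested genes 155 passed for age under AL, 35 for age under EOD and 250 for age averaged over diets.

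The number of all genes past the threshold moved by over 1.5 times in several settings. For age in AL mice it was 173, against 444 when low genes were kept (any gene with a count) and 86 with only the 2 groups compared, and it ranged from 102 to 221 when each mouse was left out. For age in EOD mice it was 46, against 100 with every gene and 72 with DESeq2, and from 19 to 76. Averaged over diets it was 365, against 653 with every gene, 229 at FDR 0.05 and 237 with lane, and from 216 to 425. For diet it was 0 in young and 0 in old mice, against 26 and 27 with every gene, 1 in young mice with DESeq2 and 2 in old mice with lane. Averaged over ages it was 0 against 65 with every gene, and for the interaction 0 against 26; the cause was not tested. Of the other list genes, Fabp7 (diet in young mice, -0.86, FDR 1.64e-06; diet averaged, -0.53; age in AL mice, -0.58), Slc27a1 (diet averaged, -0.34, FDR 0.0684), Rxra (age in AL mice, 0.37, FDR 0.0801) and Angptl4 (age in EOD mice, -1.42, FDR 0.0844) passed in edgeR when low genes were kept. In the main fit Fabp7 had the same fold change of -0.86 with diet in young mice (SE 0.348) but an edgeR FDR of 0.996. Its groups overlapped only through the third young AL mouse, which had 19.5 CPM. The other young AL mice had 37.0 to 71.7 CPM and young EOD mice 20.5 to 32.5 CPM. Without that mouse the Fabp7 fold change with diet in young mice was -1.12 (SE 0.296). Ppard passed for age in AL mice without young AL replicate 4 (0.60, edgeR FDR 0.0583). That mouse had the highest young AL value of Ppard (19.4 CPM), and the third young AL mouse, which stayed in, had the lowest (9.52 CPM). Means of Ppard were 13.3 CPM in young AL mice, 14.6 CPM without the third, and 17.0 CPM in old AL mice. Rxra averaged 33.1 CPM in young AL mice, 37.2 CPM without the third, and 42.5 CPM in old AL mice.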
